A study of Danio rerio with 4 samples.

Results

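The genes described here encode the egg-yolk lipoprotein precursors (vitellogenins), the protein components of blood lipoproteins (apolipoproteins A, B, C and E) and the microsomal triglyceride transfer protein, which loads lipid onto apolipoprotein B. Features of the array were taken by name: those whose zebrafish symbol in the authors' deposited annotation began with vtg, apoa, apob, apoc or apoe or was mtp, and those without a symbol whose human ortholog name began with APOA, APOB, APOC, APOE or MTTP, leaving out the apobec genes. The rule gave 23 of 37176 features, 12 by zebrafish symbol and 11 by human ortholog name. Of these, 6 were vitellogenin features and 17 were apolipoprotein or mtp features. No feature (0) was matched to vtg1 by symbol or by accession in the RefSeq annotation used for names. A feature without a symbol and missing from that annotation would not be found this way. The array may therefore hold a vtg1 feature that is not described here. Near-identical copies exist in these families, so it is uncertain which copy each feature measures, and every feature is reported separately.

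Whole zebrafish embryos were profiled on 4 Cy3-labelled arrays, 2 for each genotype. The transgenic embryos carried Tg(hsp70-hRASG12V), an activated human RAS gene behind the heat-inducible hsp70 promoter, and the design text calls them heterogeneous; the control embryos were wild type, with the tag ab in the array titles, whose meaning the labels do not give. Both genotypes were kept at 28.5 °C, given a heat shock of 1 h at 37 °C from 24 hours post fertilisation (hpf), and collected at 30 hpf. The hsp70 promoter is not specific to a tissue, each array stood for a pool of 50 embryos according to the design text, and the 2 genotypes may differ in clutch or background, which cannot be told apart from the transgene. The design text names 3 replicates; 2 arrays per genotype were analysed here. Values are log2 intensities as the authors deposited them, with array medians from 9.50 to 9.62 and 25th percentiles from 7.05 to 7.17. Pearson's r across features was 0.996 between the transgenic arrays and 0.988 between the wild-type arrays. No detection call came with the values, and the number of arrays limits the precision.

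Vitellogenin is made in the liver of egg-laying females under estrogen, carried in blood to the oocyte and cleaved into the yolk proteins that the embryo lives on. In the early zebrafish embryo the yolk syncytial layer, a cell layer on the surface of the yolk, repackages yolk lipid into lipoproteins built on apolipoprotein B with the help of the transfer protein, and apolipoproteins A and E ride on the exported particles. Differences below are given as log2 fold changes, transgenic minus wild type, with the SE or 95% interval of limma. A feature was called changed where its Benjamini-Hochberg adjusted p over all 37176 features was below 0.05. Over all features 17.6% were called, 10.3% higher and 7.28% lower, and centring each array on its median turned the split from 3830 higher and 2708 lower to 3316 higher and 3630 lower.

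Both features of vtg7 fell in the transgenic embryos, and they carried the largest differences of the family. The feature OTTDART00000011965 read 5.28 and 5.11 in the transgenic arrays against 8.99 and 8.96 in the wild-type arrays. The difference was -3.78 ± 0.15 (SE, n = 2 arrays per genotype), a 13.7-fold lower signal (limma adjusted p = 0.0068), and only 7 of the 37176 features had a larger fall. The groups were far apart: the gap between genotypes was many times the spread within either.

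The other vtg7 feature, OTTDART00000011966, read 6.99 and 6.66 in the transgenic arrays and 9.03 and 9.10 in the wild-type arrays. It fell by 2.24 ± 0.17, or 4.72-fold (limma adjusted p = 0.0091), and stood at rank 61 among falls. The wild-type readings of these features lay near the middle of the array's range, at the 43.3rd and 44.4th percentile of all features. In the transgenic arrays both features averaged below 7.05, the lowest of the arrays' 25th percentiles and called the low-signal line from here on, at 5.19 and 6.83. How much of a signal below that line is background is not known, so the size of the fall is uncertain. When 50 was added to every intensity before taking log2, the differences were -2.67 at the feature with the larger fall and -1.84 at the other. In whole embryos, fewer cells making a transcript and less of it per cell cannot be told apart.

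The 4 features of the other vitellogenin genes were not called. They gave signals near the bottom of the range in every array. The feature of vtg4 read 4.83 and 4.39 in the transgenic arrays and 5.097 and 5.27 in the wild-type arrays (-0.57, 95% interval -1.09 to -0.05, limma adjusted p = 0.12). The feature of vtg5 read 4.12 and 3.96 against 4.29 and 5.05 (-0.63, interval -1.35 to 0.09, adjusted p = 0.18). In both, the transgenic arrays lay below the wild-type arrays, with a wild-type SD of 0.53 for vtg5. Without wild-type replicate 1 the difference of vtg5 was -1.01, whereas without wild-type replicate 2 it was -0.25.

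The feature of vtg2 went the other way. It read 4.12 and 4.47 in the transgenic arrays and 3.83 and 3.74 in the wild-type arrays (0.51, interval 0.05 to 0.97, limma adjusted p = 0.11). The feature of vtg6 read 3.49 and 3.87 against 3.74 and 3.69, so that its groups overlapped (-0.04, interval -0.51 to 0.43, adjusted p = 0.90). Group means of these 4 features lay between 3.68 and 5.18, all below the low-signal line, so a difference in their transcripts may not be detectable at this signal.

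**Figure D1:**
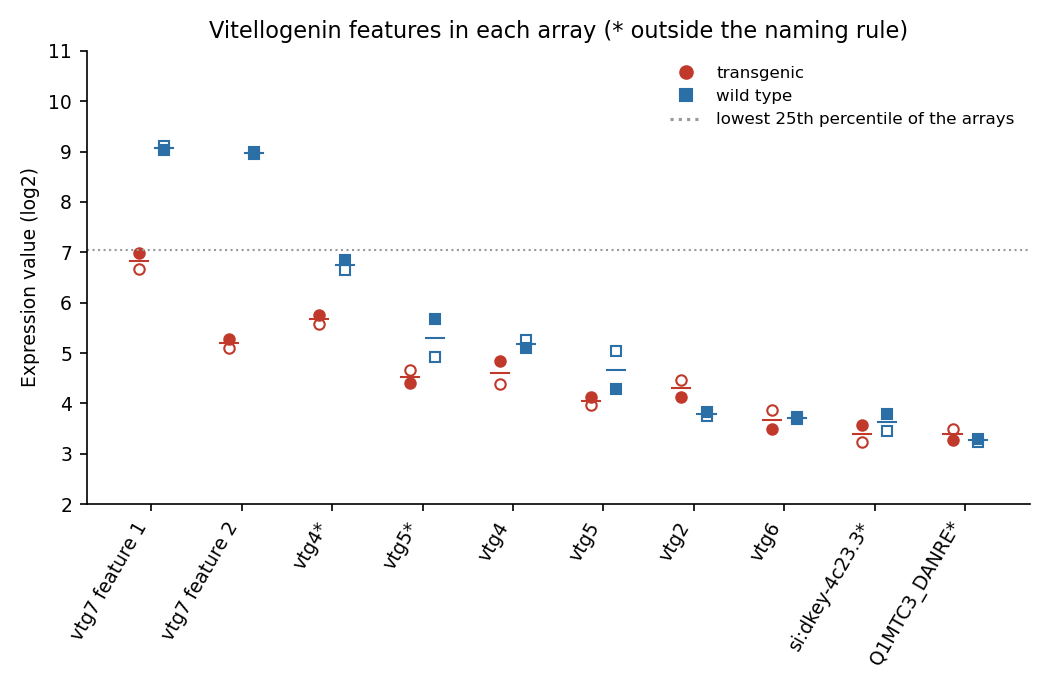
Log2 expression value (vertical axis) of each vitellogenin feature in the 4 arrays, with transgenic arrays as red circles and wild-type arrays as blue squares; filled symbols are replicate 1, open symbols replicate 2, short lines group means, and an asterisk marks features outside the naming rule. The vtg7 features stand near 9 in the wild-type arrays and below the dotted low-signal line (7.05) in the transgenic arrays, while the other features stand below that line in both genotypes.

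Further vitellogenin features lay outside the naming rule and were identified afterwards. A feature with the RefSeq accession of vtg4 read 5.75 and 5.59 in the transgenic arrays and 6.85 and 6.65 in the wild-type arrays. It fell by 1.08 ± 0.16 (limma adjusted p = 0.019), a call that the vtg4 feature of the rule did not reach. The group means of the fallen feature, 5.67 in transgenic and 6.75 in wild type, lay below the low-signal line. The size of its fall is therefore uncertain. A feature with the accession of vtg5 read 4.40 and 4.65 against 5.67 and 4.93 (-0.78, adjusted p = 0.12). Both had the sign of the feature of the same gene within the rule. A further pair, described in the file as similar to vitellogenin 1, gave mean signals of 3.33 and 3.51 and differences of 0.12 and -0.22 (adjusted p = 0.61 and 0.46).

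The vitellogenin genes measured here lie close together. In the RefSeq annotation of the assembly GRCz12tu, used for names and neighbourhood only, 0 annotated genes separate vtg7 from vtg2, and 1 separates vtg6 from vtg7. The immediate neighbour vtg2 had a difference of 0.51 that was not called, beside differences of -3.78 and -2.24 at vtg7. The group means of vtg2, 4.30 in transgenic and 3.79 in wild type, lay below the low-signal line. A fall at vtg2 may therefore not be detectable. The difference between the genes was not tested.

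Estrogen receptors, which drive vitellogenin transcription in the adult liver, were looked at beside them. The list used also held estrogen-related receptors, the androgen receptor and other genes of estrogen response. Of 11 measured, 0 rose and 0 fell in limma, and 1 had an unadjusted p below 0.05. The share of all features at that cutoff was not counted, so this count does not set the list apart. Of these 11, 6 had a mean below the low-signal line, so a difference in them may not be detectable at this signal. The smallest p belonged to the estrogen-related receptor genes esrra (0.54 ± 0.18, adjusted p = 0.10), esrrb (0.76 ± 0.31, adjusted p = 0.15) and esrrd (-0.60 ± 0.34, adjusted p = 0.26). The receptor gene esr1, named outside the rule for named genes, read 6.73 and 7.08 in the transgenic arrays and 6.63 and 6.77 in the wild-type arrays, which overlapped (0.21, interval -0.26 to 0.67). Its group means, 6.90 and 6.70, lay below the low-signal line. The receptor gene esr2a, also named outside that rule, read 6.32 and 6.49 in the transgenic arrays against 6.53 and 7.05. Its difference was not called (-0.39, interval -0.96 to 0.18), and both group means lay below the low-signal line.

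The apolipoprotein and mtp features were counted by signal. Of the 9 apolipoprotein and mtp features with a mean value of 12 or more, 0 were called by limma. Of the 8 below 12, 4 were called, all lower. The split at 12 was chosen after the values were seen and was given no test. Among all features, 8.01% of those at 12 or more were called in either direction, so 0 of 9 does not set these members apart. Of all features between 9 and 12, 18.0% were called and 7.64% were called lower. The dimmest of the 8 members below 12, a feature of apoeb with a mean of 6.27, lay below that band. Signals of different features do not compare the abundance of their transcripts.

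Apolipoprotein A-I, the main protein of high-density lipoprotein, was measured by a feature named apoa1 in the file (apoa1a in RefSeq, OTTDART00000013337). It read 15.52 and 15.49 in the transgenic arrays and 15.69 and 15.65 in the wild-type arrays. The transgenic arrays lay below the wild-type arrays, but the difference was small, at -0.16 (interval -0.51 to 0.19, limma adjusted p = 0.43). These values stood above the 99th percentile of the arrays, whose highest value was 16.04, so that little room was left for a higher signal.

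Apolipoprotein A-IV, a component of lipoproteins that carry dietary lipid, was measured by several features that disagreed. The features named apoa4 in the file, a synonym of apoa4b.1 in RefSeq, did not fall. One (OTTDART00000026605) read 14.42 and 14.36 in the transgenic arrays and 13.98 and 13.90 in the wild-type arrays, without overlap (0.46, interval 0.10 to 0.81, limma adjusted p = 0.084). It passed upward with an intensity trend in eBayes (adjusted p = 0.015) and with log2(value + 50) (adjusted p = 0.046). The other (OTTDART00000026607) read 14.11 and 14.09 against 14.16 and 13.93, and its groups overlapped (0.06, interval -0.34 to 0.45).

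Features named only by the human ortholog APOA4 included 2 that fell. The feature ZV700S00003173 read 9.78 and 9.79 in the transgenic arrays and 11.20 and 11.27 in the wild-type arrays, a fall of 1.45 ± 0.14 or 2.73-fold (limma adjusted p = 0.0099). The feature TC240557 read 10.49 and 10.56 against 11.70 and 11.49 and fell by 1.07 ± 0.15, or 2.096-fold (adjusted p = 0.019). In both, the replicates of a genotype lay close together and the groups were separate. The third, ZV700S00005629, read 13.23 and 13.04 against 13.19 and 13.20, with overlap (-0.06, interval -0.44 to 0.32).

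A feature with both human ortholog names APOA4 and APOA1 (TC237267) read 10.73 and 10.82 in the transgenic arrays and 11.58 and 11.34 in the wild-type arrays. It fell by 0.69 ± 0.16, or 1.61-fold (limma adjusted p = 0.045). This call was close to the threshold: it was lost in the fit blocked on replicate number (adjusted p = 0.056) and without wild-type replicate 1 (-0.57, adjusted p = 0.058). RefSeq lists several zebrafish A-IV genes, among them apoa4a and a cluster beside apoeb, and the files do not say which of them these features measure.

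**Figure D2:**
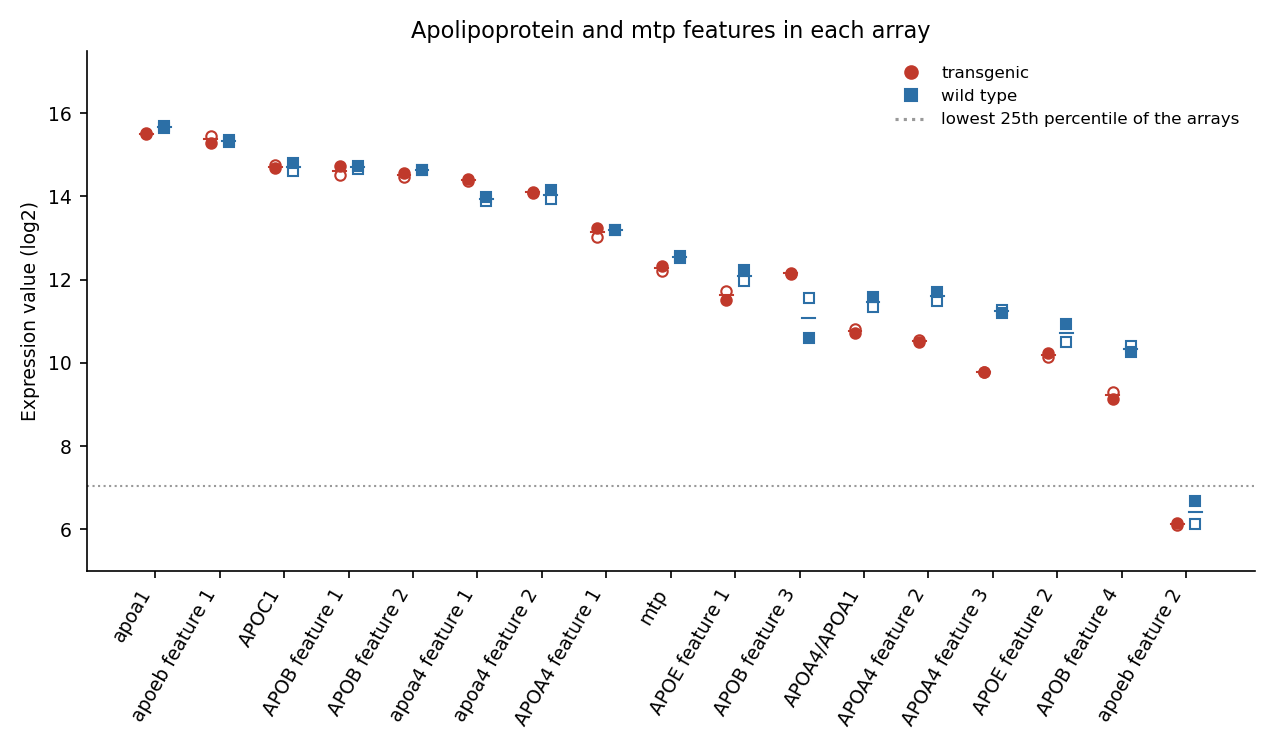
Log2 expression value (vertical axis) of the 17 apolipoprotein and mtp features in the 4 arrays, ordered by mean signal; transgenic arrays are red circles, wild-type arrays blue squares, filled for replicate 1 and open for replicate 2, and short lines are group means. The genotypes lie close together in most features above 12, whereas the features called lower (2 named APOA4, the one named APOA4 and APOA1, and the dimmest APOB feature) have both transgenic arrays below both wild-type arrays. An APOB feature that was not called lies higher in the transgenic arrays.

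Apolipoprotein B, the large structural protein of yolk-derived and liver-derived lipoproteins, gave features with differences of either sign, of which the fall at TC241668 was the 1 called. ZV700S00005187 read 14.73 and 14.51 in the transgenic arrays and 14.73 and 14.67 in the wild-type arrays (-0.08, interval -0.47 to 0.32). TC238656 read 14.57 and 14.46 against 14.63 and 14.62 (-0.11, interval -0.47 to 0.25). For both features the interval keeps the difference below 0.5 in either direction.

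The feature TC241668 fell. It read 9.14 and 9.30 in the transgenic arrays and 10.25 and 10.40 in the wild-type arrays, a difference of -1.11 ± 0.15 or 2.16-fold (limma adjusted p = 0.017). The feature ZV700S00003662 read 12.13 and 12.17 against 10.60 and 11.57 without passing (1.07, interval 0.20 to 1.94, adjusted p = 0.090). With an intensity trend in eBayes it passed upward (adjusted p = 0.031). The wild-type arrays differed from each other by nearly as much as the genotypes did (SD 0.68). Without wild-type replicate 2 the difference was 1.55, whereas without wild-type replicate 1 it was 0.59.

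Clone-named features related to apolipoprotein B lay outside the naming rule. One with the human ortholog name APOB, which RefSeq names apobb.1, read 15.44 and 15.31 in the transgenic arrays and 14.52 and 15.09 in the wild-type arrays (0.57, interval -0.02 to 1.16, limma adjusted p = 0.14). The transgenic mean of this feature stood at the 99.7th percentile, where little room was left for a higher signal. Wild-type replicate 1 was low here, as it was at ZV700S00003662. Of the features of si:dkeyp-88f5.1, the brighter fell by 0.79 ± 0.14 (adjusted p = 0.027), from 12.14 and 12.20 in the wild-type arrays to 11.40 and 11.35 in the transgenic arrays, and the other overlapped (0.13, adjusted p = 0.75). The file gives the ortholog name APOB to the dimmer of these features and none to the brighter, so the called fall belongs to a feature tied to APOB by its shared symbol alone.

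Apolipoprotein E binds lipoprotein receptors of the LDL receptor family, and in zebrafish apoeb is also known as a gene of microglia. Its bright feature (OTTDART00000026608) read 15.28 and 15.46 in the transgenic arrays and 15.31 and 15.35 in the wild-type arrays, with overlap (0.04, interval -0.34 to 0.42, limma adjusted p = 0.88). The bright feature stood at the 99.7th percentile in both genotypes, so little room was left for a higher signal. The other feature of apoeb gave a signal near the bottom of the range, 6.15 and 6.11 against 6.68 and 6.14 (-0.28, limma adjusted p = 0.41). Its difference was -0.55 without wild-type replicate 2 and -0.0053 without wild-type replicate 1. Neither feature of the gene was called with all 4 arrays.

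The features with the human ortholog APOE were lower in the transgenic arrays without passing. ZV700S00004935 read 11.52 and 11.73 against 12.22 and 11.97 (-0.47, interval -0.91 to -0.03, limma adjusted p = 0.12), and with an intensity trend in eBayes it passed (adjusted p = 0.047). TC245672 read 10.23 and 10.14 against 10.93 and 10.50 (-0.53, interval -1.04 to -0.03, adjusted p = 0.12). Its difference was -0.75 without wild-type replicate 2 and -0.32 without wild-type replicate 1. In both features, all transgenic readings lay below all wild-type readings.

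Apolipoprotein C-I, an inhibitor of lipoprotein uptake and lipase action in mammals, showed no difference that these arrays could resolve. Its feature read 14.68 and 14.75 in the transgenic arrays and 14.81 and 14.62 in the wild-type arrays (-0.0024 on the log2 scale, interval -0.39 to 0.38, limma adjusted p = 0.99). In RefSeq 0 annotated genes separate apoeb from apoc1. The transfer protein gene mtp (mttp in RefSeq) read 12.34 and 12.21 against 12.56 and 12.51 (-0.26, interval -0.63 to 0.10, adjusted p = 0.24). Its transgenic arrays lay below its wild-type arrays, by less than the test could call.

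Over all 23 members, 0 were called higher and 6 lower, 2 of them vitellogenin and 4 apolipoprotein features. That is set beside 10.3% higher and 7.28% lower over all features. The members had a median of -0.26, all features a median of 0.01. In limma 3 members had an unadjusted p below 0.05 and a higher value, and 9 a lower one. The share of all features at that cutoff was not counted. In limma an unadjusted p of 0.041 (TC245672) gave an adjusted p of 0.12, so such p-values were common over all features. These counts therefore do not set the members apart. Both transgenic arrays lay below both wild-type arrays at 13 members and above them at 3, and the groups overlapped at 7; over all features the groups were separate in 67.6%, with the transgenic arrays below in 33.1% and above in 34.4%. In the authors' deposited table, 15 members had a q-value below 0.05, 12 lower and 3 higher, where 67.7% of all features had one. When either transgenic array was left out, 0 features of the whole table passed in limma, with 7482 and 7548 features, among them 7 and 6 members, at an unadjusted p below 0.05.

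**Figure D3:**
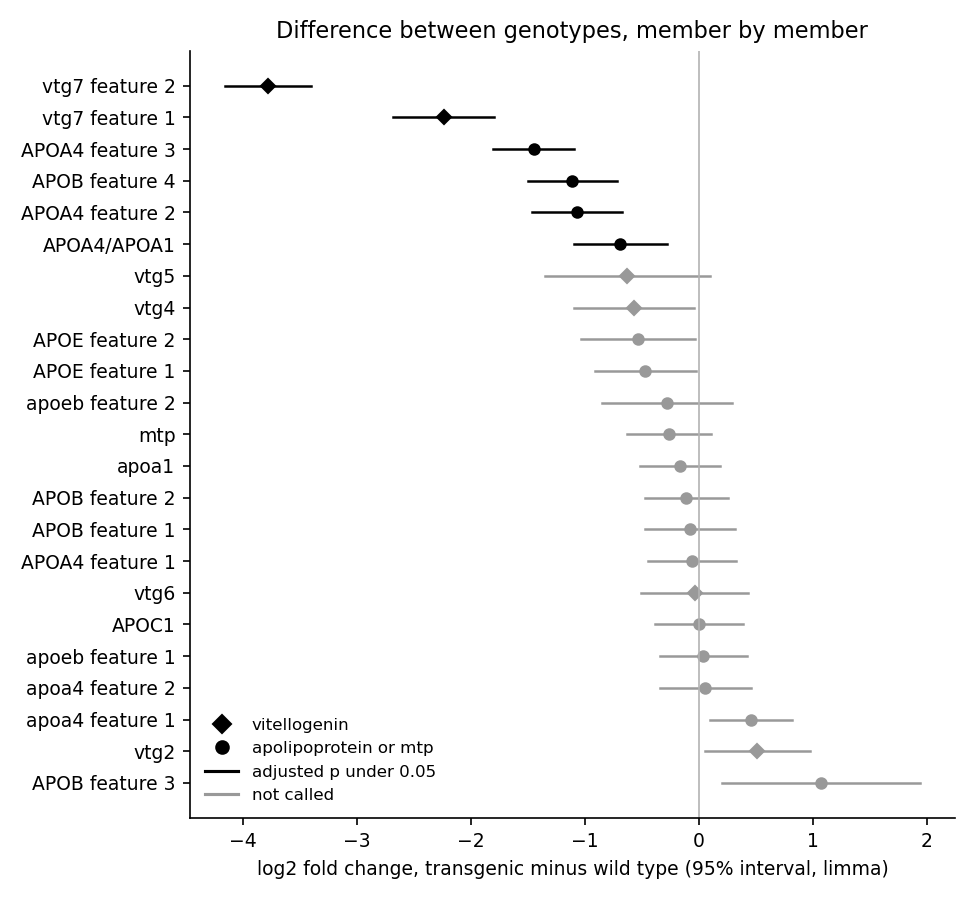
Log2 fold change, transgenic minus wild type (horizontal axis), of each of the 23 members with its 95% interval from limma; diamonds are vitellogenin, circles apolipoprotein or mtp features, black where the adjusted p was below 0.05. The vtg7 features lie farthest from 0, at -3.78 and -2.24, followed by a feature named APOA4 at -1.45, and the 17 members in grey were not called.

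**Figure D4:**
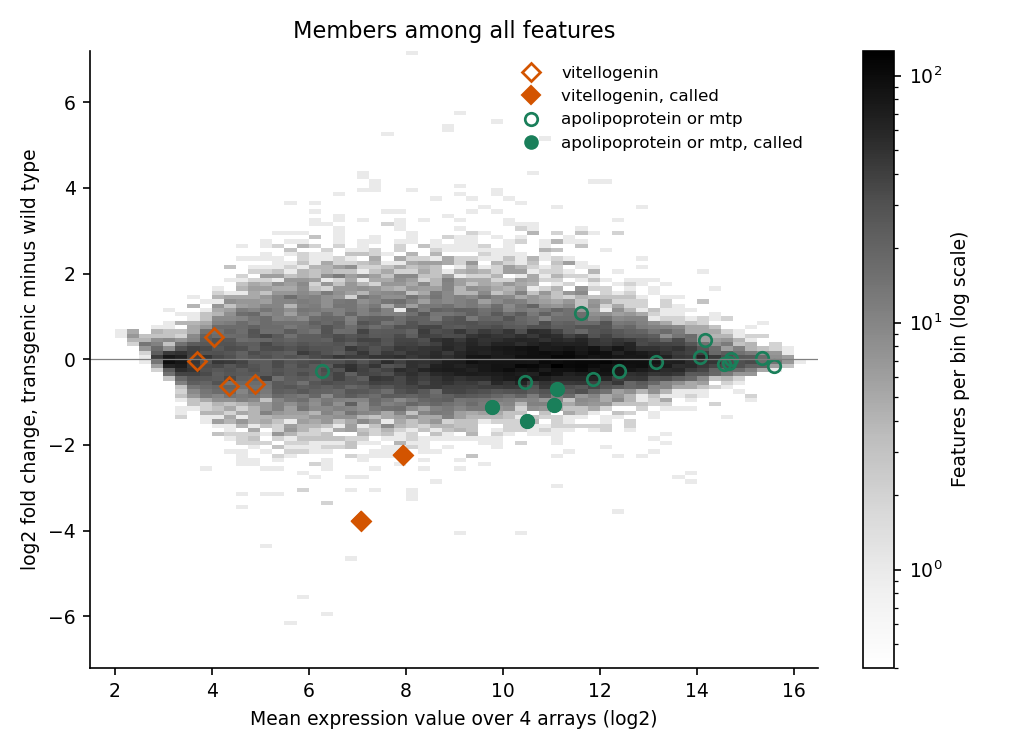
Mean log2 expression value over the 4 arrays (horizontal axis) and log2 fold change, transgenic minus wild type (vertical axis); grey bins count all 37176 features on a log scale, symbols are the members, and filled symbols are called. The vtg7 features lie at the lower edge of the cloud, and the apolipoprotein features above 12 lie within it near 0.

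Other genes of lipoprotein handling were read from lists, with the brightest feature standing for a gene. Among the called genes, clu, dgat1b and rxrba had further features on the array, which are not described here. Of 5 other apolipoproteins measured, 0 rose and 2 fell: clu, a secreted chaperone also called apolipoprotein J (-0.84 ± 0.15), and apoda.1, a lipocalin gene of the apolipoprotein D family (-0.92 ± 0.17). Among 10 receptor and uptake genes, 1 rose and 3 fell. The fallen genes included cd36, a scavenger receptor and fatty acid carrier (8.49 and 8.20 in the transgenic arrays against 10.23 and 10.20, -1.87 ± 0.16, limma adjusted p = 0.0093), and mylipa, a relative of the ubiquitin ligase that degrades the LDL receptor in mammals (-0.89 ± 0.15). The scavenger receptor gene stab2 rose by 0.90 ± 0.18.

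In assembly and esterification, 1 of 11 rose and 1 fell. The triglyceride synthesis genes mogat2 and dgat1b went apart, at -1.46 ± 0.22 (limma adjusted p = 0.020) and 0.68 ± 0.16 (adjusted p = 0.048), and surf4, an export receptor for lipoproteins in mammals, differed by -0.57 ± 0.15 without passing (adjusted p = 0.059). Among 10 lipase and remodelling genes 0 rose and 1 fell, the phospholipid transfer protein gene pltp (-0.62 ± 0.15); lipf differed by -0.65 ± 0.17 and lipea by 0.54 ± 0.16 without passing. Of 9 sterol efflux and lipid receptor genes 1 rose and 1 fell. The fall was in pparab, which encodes a receptor that turns on fatty acid oxidation (5.87 and 5.97 against 7.88 and 7.81, -1.93 ± 0.14, adjusted p = 0.0091), with its transgenic mean below the low-signal line. The rise was in the retinoid X receptor gene rxrba (0.78 ± 0.16), and nr1h4, the bile acid receptor gene, differed by 0.52 ± 0.18 (adjusted p = 0.11).

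Among 12 hepatic and yolk transcription factor genes, 1 rose and 1 fell, and the median was -0.41. The acute phase factor gene cebpb rose by 1.67 ± 0.14, and creb3l3a, a factor gene of liver lipid and secretory metabolism, fell by 0.73 ± 0.14 (limma adjusted p = 0.033). The gene hnf4a, whose product activates apolipoprotein and mttp genes in mammalian liver, read 10.04 and 9.85 in the transgenic arrays and 10.64 and 10.46 in the wild-type arrays (-0.61 ± 0.16) without passing (adjusted p = 0.061). Of 20 sterol synthesis genes 1 rose and 2 fell. These were srebf2, the master factor gene of sterol synthesis (0.84 ± 0.19), and the enzyme genes lss (-1.30 ± 0.16) and mvk (-0.91 ± 0.21). Of 15 yolk protease and lysosome genes 1 rose, the proprotein convertase gene furina (1.26 ± 0.28), and 1 fell, the proton pump gene atp6v1ba (-1.56 ± 0.24); ctslb differed by 0.81 ± 0.21 (adjusted p = 0.058).

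**Figure D5:**
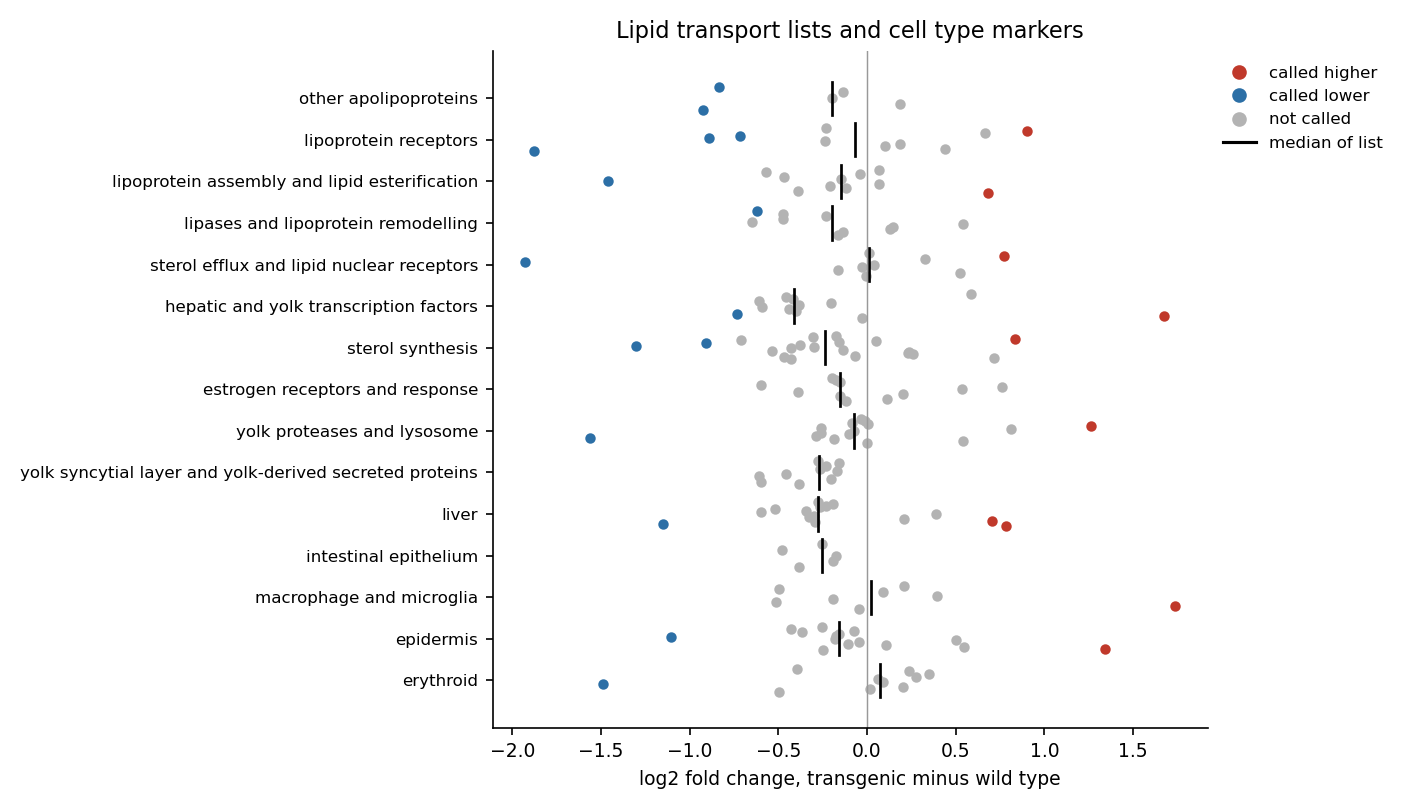
Log2 fold change, transgenic minus wild type (horizontal axis), of the measured genes of 9 lipid transport and 6 cell type lists, 1 point per gene, with black bars at list medians; red points were called higher and blue points lower. Most genes are not called, and all 10 genes of the yolk syncytial layer list lie below 0, between -0.61 and -0.16. All 5 genes of the intestinal list also lie below 0.

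Genes of lists named for the yolk syncytial layer, liver, intestine, macrophages and microglia, epidermis and erythroid cells were read in the same arrays. Whether the genes of a list report the tissue it is named for at the stage collected was not tested. For liver and intestine, the values below therefore describe the listed genes and not the organs. Of 10 measured genes of the yolk syncytial layer and its secreted proteins, 0 rose and 0 fell in limma, and 3 had an unadjusted p below 0.05. The share of all features at that cutoff was not counted, so this count does not set the list apart. All 10 differences were below 0, with a median of -0.27, and the log2 of the summed signal was 15.82 and 15.72 in the transgenic arrays and 16.03 in both wild-type arrays. The brightest genes of a list weigh most in its summed signal, and those of this list also stand in the liver list. Differences below 0 also numbered 11 of 15 in the liver list, 11 of 15 in epidermis and 5 of 5 in intestine. They numbered 4 of 8 in macrophage and microglia genes, 3 of 10 in erythroid genes and 18404 of 37176 over all features. The smallest p after hnf4a belonged to gc, a vitamin D binding protein gene (-0.60 ± 0.17), and gata5, an endoderm factor gene (-0.38 ± 0.14). The means of gc, 5.95 in transgenic and 6.55 in wild type, lay below the low-signal line. The defining factor gene of this layer, mxtx2, stood near the bottom of the range (3.86 and 4.20 against 4.63 and 4.34). Of the 10 genes, 4 also stand in the liver list and 4 in the transcription factor list, so the medians of these lists are not separate observations. The part of this tissue in the apolipoprotein differences was not tested. Of 15 liver genes 2 rose and 1 fell. The rises were in the complement gene c9 (0.71 ± 0.14) and the angiotensinogen gene agt (0.78 ± 0.16), and the fall was in ahsg2 (-1.15 ± 0.17). The median of the liver list was -0.28 and its summed signal 16.53 in each transgenic array against 16.66 and 16.64. The hepatocyte gene fabp10a read 6.34 and 6.92 in the transgenic and 6.84 and 7.01 in the wild-type arrays, all below the low-signal line.

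Among 5 intestinal genes 0 rose and 0 fell in limma, and 1 had an unadjusted p below 0.05. The share of all features at that cutoff was not counted, so this count does not set the list apart. All 5 differences were below 0, with a median of -0.25. The smallest p belonged to slc15a1b (-0.48 ± 0.15), agr2 (-0.39 ± 0.18) and cdh17 (-0.19 ± 0.15). The summed signal of this list was 12.75 and 12.85 in the transgenic arrays and 12.93 and 13.08 in the wild-type arrays. Of its 5 genes, 3 had a mean below the low-signal line, among them slc15a1b (transgenic 5.67, wild type 6.15). Of 8 macrophage and microglia genes 1 rose, csf1ra (1.74 ± 0.14), and 0 fell, with summed signals of 11.76 and 11.93 against 11.83 and 11.60. In this list irf8 (0.40 ± 0.14) and mpeg1.1 (-0.50 ± 0.20) did not pass. Epidermis had 1 rise (cdh1, 1.34 ± 0.14) and 1 fall (krt15, -1.10 ± 0.19) among 15 genes, and cldne did not pass (0.54 ± 0.14). Erythroid genes had 0 rises and 1 fall (hbaa1, -1.49 ± 0.27) among 10, and alas2 (-0.50 ± 0.14) and tal1 (-0.40 ± 0.15) did not pass. The epidermis median was -0.16, and the macrophage and erythroid medians were 0.02 and 0.08. Among the other called genes of the lists, atp6v1ba and ahsg2 had means below the low-signal line in both genotypes, lss and hbaa1 in the transgenic arrays alone, and csf1ra in the wild-type arrays alone.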

How the data were processed

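Expression of whole embryos was measured on 4 arrays, grouped by the genotype in their labels. Per the labels' protocols, total RNA came from a Trizol extraction, and Roche NimbleGen did the Cy3 labelling. The authors deposited expression values per array, taken as log2 because the highest (16.04) lies at the limit of a 16-bit scanner; the sources used here do not give the scanner, background correction or normalization. Per the file headers, the authors' deposited comparison holds a mean log fold change and q-value for each feature; the test behind it is likewise not given.

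Genotypes were compared with lmFit and eBayes (limma 3.58.1, R 4.3.3) on all 37176 features, with 2 residual and 2.92 prior degrees of freedom and Benjamini-Hochberg adjustment over all features; the step was tested on simulated data. Nothing says whether the pools came from separate clutches, so p-values may measure technical spread. Names were updated through RefSeq (GRCz12tu).

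Named were all vitellogenin features, all called members, the brightest feature of each other member gene, and up to 3 genes with the smallest p per list. The genes esr1, esr2a, mxtx2 and fabp10a were named outside this rule. There were 9 lists on lipid transport and 6 on cell types. Not every listed gene was measured: the share ran from 5 of 14 other apolipoproteins to 15 of 17 epidermis genes. Members and lists were chosen with earlier results of these data known. The remaining members were also given in full. The alternatives were quantile normalization, median centring, a filter at the 25th percentile of mean value, eBayes with trend or robust prior, log2(value + 50), the replicate block, the deposited q-values, a threshold of 0.10, and leaving out each array.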

Additional observations from a re-analysis of the deposited data

How the results depend on the processing

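The 6 falls kept their sign under every alternative that gave a value, but most alternatives could not change it. The eBayes options, the filter, the replicate block, the threshold of 0.10 and the deposited table leave the fold change itself unchanged. Leaving out a single array cannot reverse groups that do not overlap. With all 4 arrays, members called lower numbered 5 to 7, except for 12 by the deposited q-values. Members called higher, 0 as reported, numbered 2 with an eBayes trend, 1 with log2(value + 50), 2 at an adjusted p of 0.10 and 3 by the deposited q-values. Of all 37176 features, the trend called 5315 higher and 3976 lower, and log2(value + 50) called 4023 higher and 3192 lower. Leaving out single arrays gave 0 to 8 members lower and 0 to 1 higher, and 0 to 5116 features lower and 0 to 7047 higher in the whole table, against 2708 and 3830. At an adjusted p of 0.10 the table held 5054 lower and 6193 higher features, and by the deposited q-values 12169 and 12981. The filter at the 25th percentile removed 6 members, among them the vtg7 feature with the larger fall, and left 5 called lower. The replicate block left 5 members lower, ending the call of the feature named APOA4 and APOA1 (adjusted p = 0.056), and changed no other member's call. The shared replicate number marks no known batch; the replicate differences of the genotypes correlated at 0.206 across features. Differences near 0 changed sign: vtg6 and APOC1 with quantile normalization (0.0125 and 0.0123), and a feature each of apoa4 (-0.0365) and apoeb (-0.0551) with median centring. Without single arrays vtg6 ranged from -0.228 to 0.154, APOC1 from -0.0965 to 0.0917, that apoa4 feature from -0.0589 to 0.171, the apoeb feature from -0.0544 to 0.129, the brightest APOB feature from -0.184 to 0.0283 and the brightest APOA4 feature from -0.157 to 0.0382. The cause was not tested. Per-array values in the fold-change table could not be used as an alternative source, since that table holds group comparisons alone. With no detection call, low signal limits what the vtg2, vtg4, vtg5 and vtg6 features can show.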
